A study of Mus musculus with 2 samples.

Results

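Mediator is a large protein complex that RNA polymerase II needs at most of its promoters, and the genes of its subunits were followed here in ES-E14, a line of mouse embryonic stem cells. Genes were taken when they were annotated as protein-coding in GENCODE mouse and carried a Med symbol with a number, with or without a letter, or were Ccnc, Cdk8 or Cdk19. That rule found 33 genes of 43346 in the tables, 21474 of them protein-coding. It used names only and no measured value. The 33 genes were grouped by the place of their proteins in the complex, with 11 in the head, 9 in the middle, 5 in the tail, Med14 alone as the scaffold and 7 in the kinase module.

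The study holds 2 total RNA-seq libraries of 1 group, labelled biological replicates 1 and 2 and called replicate 1 and replicate 2 here. Both came from ES-E14 cells of a male 129/Ola embryo, a single established line, and no treatment, transgene or deletion is named for either. Each library's labels name the same source sample, so whether the libraries came from separate cultures is not known. Technical differences and differences between cultures therefore cannot be told apart. With 1 group there was no contrast to test, and every difference below is a description of 2 libraries.

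Mediator carries signals from transcription factors bound at enhancers to the polymerase at the promoter. The tail is the part that most activators touch, the head and middle hold the polymerase, the scaffold runs through all of them, and a detachable kinase module keeps the polymerase off while it is bound. In embryonic stem cells Mediator is known for its high occupancy at the enhancers of pluripotency genes, together with cohesin.

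Both libraries expressed the embryonic stem cell markers. All 8 of the list stood at 1 TPM (a level corrected for transcript length and scaled to a fixed total per library) or more in both, with a summed level of 1287.91 and 1245.47 TPM in replicates 1 and 2, led by Dppa5a at 613.37 and 597.01 TPM. The libraries held 43163300 and 45573512 expected counts on genes. The direction of the stem cell markers was mixed, with 5 of 8 higher in replicate 2 (Nanog at 17.19 and 31.91 TPM). Tdgf1, at 318.39 and 197.95 TPM, lowered their sum. The summed level of each of the other marker lists stood higher in replicate 2, although Thy1 of the feeder list (2.27 and 1.62 TPM) and Pax6 of the neuroectoderm list (1.37 and 0.97 TPM) stood lower. Nanog, Tdgf1, Thy1 and Pax6 are named after their values were seen. Of 10 feeder fibroblast markers 6 reached 1 TPM in both libraries, and their sum was 137.84 and 466.87 TPM, led by Vim at 88.91 and 301.94 TPM, with Lum listed at 0 in both. Trophectoderm markers (3 of 7) summed to 129.86 and 213.17 TPM, led by Krt8 at 72.69 and 113.57 TPM. Neuroectoderm markers (2 of 4) summed to 19.05 and 35.12 TPM, led by Tubb3 at 13.28 and 27.12 TPM. Endoderm markers (0 of 6) summed to 1.29 and 6.59 TPM, led by Dab2 at 0.43 and 2.77 TPM, and B cell and blood markers (0 of 5) to 0.96 and 11.14 TPM, led by Igkc at 0.39 and 5.37 TPM. Protein-coding genes took 19.35% of all TPM in replicate 1 and 23.8% in replicate 2. These shifts run the same way as the library difference of the Mediator genes given further on, and their part in it was not tested.

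Nearly the whole complex was expressed at a moderate and even level. Of the 33 genes 32 reached 1 TPM in both libraries, against 46.3% of all protein-coding genes. The exception was Med12l, a paralog of the kinase module gene Med12, at 0.50 and 0.81 TPM. The median Mediator gene stood at 6.05 TPM in replicate 1 and 8.37 in replicate 2, and at 6.79 TPM over both. Among protein-coding genes averaging 1 TPM or more, the median was 5.85 TPM. Mediator genes were packed more closely than that background. The upper quartile of their levels was 2.04 times the lower, against 5.04 times for the background, and the SD of the log2 levels was 1.02 against 1.75. The lists of other transcription genes given further on were also packed more closely than the background. Among the 26 genes of the core, meaning head, middle, tail and scaffold, the highest (Med28, 27.7 TPM) stood 9.18 times above the lowest (Med15, 3.02 TPM). Summed over the 33 genes, output was 227.08 TPM in replicate 1 and 309.45 in replicate 2. In expected counts this was 96.3 and 110 of every 100000 counts on genes.

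**Figure D1:**
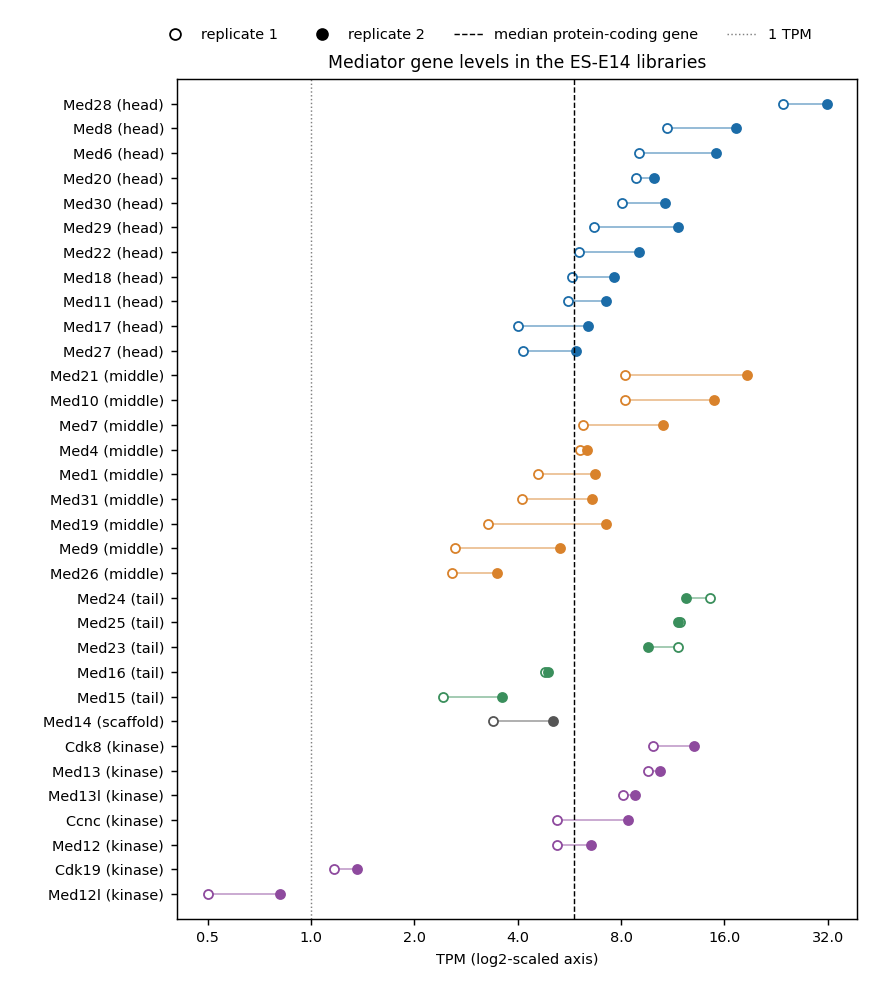
TPM of each of the 33 Mediator genes on a log2-scaled axis, with open circles for replicate 1 and filled circles for replicate 2, sorted by module and mean level. Of the 33 genes 32 lie to the right of the dotted line at 1 TPM in both libraries, and they lie around the dashed line, the median protein-coding gene at 5.85 TPM.

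The head module, which makes most of the contacts with the polymerase, had a median level of 9.21 TPM over its 11 genes. Med28, a subunit found in animals but not in yeast, was the highest gene of the complex at 23.69 and 31.76 TPM. Its lower value lay above the higher value of every other Mediator gene. Med8, which tethers the Med18 and Med20 pair to the rest of the head, followed at 10.91 and 17.31 TPM.

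Med6, a conserved subunit at the boundary of head and middle, stood at 9.01 and 15.14 TPM. Med20 and Med18, the pair that forms the movable jaw of the head, stood at 8.87 and 9.98 TPM and at 5.74 and 7.65 TPM. Med11 and Med22, which bind each other, stood at 5.59 and 7.22 TPM and at 6.05 and 9.02 TPM. The ranges of Med11 and Med22 overlapped, and those of Med20 and Med18 did not.

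Med17, the central subunit that the head is built around, was among the lowest of the head at 4.02 and 6.43 TPM. Further subunits lie between head and tail and are placed in the tail by some accounts. Med30 stood at 8.05 and 10.78 TPM, Med29 at 6.68 and 11.74 TPM and Med27 at 4.14 and 5.91 TPM. All 11 head genes stood higher in replicate 2, and for most of them the gap between libraries was as wide as the gap to the next gene, so their order within the module is loose.

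The middle module had a median of 5.65 TPM over 9 genes. Med7 and Med21 form the hinge of the middle module. Med21 stood at 8.21 and 18.61 TPM and Med7 at 6.20 and 10.62 TPM. Med10, another conserved subunit of the middle, stood at 8.21 and 14.90 TPM. Med21 and Med10 were level in replicate 1 and apart in replicate 2.

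Med4 and Med9, which also pair, stood at 6.07 and 6.35 TPM and at 2.63 and 5.31 TPM, with no overlap. Med31, the small knob that completes the middle, stood at 4.12 and 6.59 TPM. Med1, the subunit that nuclear receptors bind, stood at 4.57 and 6.73 TPM, a range that overlaps that of Med31. Med19, which sits at the outer hook of the middle, stood at 3.28 and 7.25 TPM.

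Med26 was the lowest middle gene at 2.58 and 3.48 TPM. Its protein joins the complex when the kinase module leaves and recruits elongation factors. Its higher value lay below the lower value of Med4, Med7, Med10, Med21, Med1 and Med31.

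The tail had a median of 10.69 TPM over 5 genes, and its genes formed a high and a low set. By library its median was 11.76 and 9.61 TPM, against 6.68 and 9.98 TPM for the head, so the order of these modules differed between the libraries. Med24, Med25 and Med23 stood at 14.54 and 12.41, at 11.89 and 11.69 and at 11.76 and 9.61 TPM. Med25 is the target of the viral activator VP16 and Med23 that of the growth signal factor ELK1. Med16 stood at 4.81 and 4.91 TPM, and Med15, which lipid regulators of the SREBP family bind, at 2.43 and 3.61 TPM. The low set did not overlap the high set in either library. With Med27 to Med30 counted in the tail its median was 9.42 TPM, and the head without them had 7.54 TPM. Med14, the scaffold that joins head, middle and tail, stood at 3.38 and 5.07 TPM.

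The kinase module had a median of 6.79 TPM over 7 genes, and the widest range of levels. Its proteins are a kinase (Cdk8 or Cdk19), cyclin C (Ccnc), Med12, which activates the kinase, and Med13, which ties the module to the core. Cdk8 stood at 9.94 and 13.09 TPM, Ccnc at 5.20 and 8.37 TPM, Med12 at 5.20 and 6.52 TPM and Med13 at 9.56 and 10.42 TPM. The vertebrate paralogs Cdk19, Med12l and Med13l take the places of Cdk8, Med12 and Med13 in alternative forms of the module. Cdk19 stood at 1.17 and 1.36 TPM, Med12l at 0.50 and 0.81 TPM and Med13l at 8.08 and 8.80 TPM.

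The pairs of paralogs were unequal in different degrees. Cdk8 stood 8.50 and 9.63 times above Cdk19 in replicates 1 and 2, and Med12 stood 10.4 and 8.05 times above Med12l. Med13 and Med13l were near each other, with a ratio of 1.18 in both libraries. Counting only transcripts annotated as protein-coding lowered the first ratio to 2.70 and 4.68 and the second to 6.08 and 4.33, and put Med13 below Med13l, at 0.756 and 0.978. That count was chosen after seeing the data. Cdk19, Med12l and Med13l have protein-coding transcripts only, so it could lower each ratio but not raise it. The Med12 ratio sets forms of unlike length side by side. Med12l-201, at 0.32 and 0.58 TPM, has 15 exons and 2295 bases, where Med12-201 has 45 exons and 6809 bases. The long Med12l-204 (44 exons) stood at 0.11 and 0.23 TPM and the long Med12l-202 (43 exons) at 0.06 and 0 TPM. A ratio of long forms alone was not computed. In expected counts the protein-coding Med13-201 held 4932.71 of 5046 for Med13 in replicate 1 and 6620.36 of 6682 in replicate 2. The low pair of genes was measured from 515 and 568 expected counts for Cdk19 and from 189 and 266 for Med12l. Exact 95% Poisson intervals for Med12l were 163 to 218 and 235 to 300 counts, covering counting error only. The authors' interval for its level was 0.41 to 0.63 TPM in replicate 1 and 0.70 to 0.97 in replicate 2, under 1 TPM in both. For Cdk19 it was 1.07 to 1.28 and 1.25 to 1.47 TPM, above 1 TPM in both.

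Set beside other parts of the transcription machinery, Mediator genes stood below the polymerase itself. All 13 genes of the RNA polymerase II list reached 1 TPM in both libraries, with a median of 26.4 TPM, from Polr2k at 3.67 and 9.14 TPM to Polr2f at 63.07 and 68.26 TPM. TFIID, the factor that recognises promoters, had 16 of 18 genes at 1 TPM and a median of 4.56 TPM. Its highest gene was Taf10 at 37.02 and 40.39 TPM, and the germ cell paralog Taf7l (0.20 and 0.76 TPM) and Taf9b (0.52 and 0.50 TPM) fell under 1 TPM. The other general factors had all 17 genes at 1 TPM and a median of 10.2 TPM, from Cdk7 at 2.39 and 3.66 TPM to Gtf2f1 at 13.77 and 23.25 TPM. Elongation factors linked to Mediator had 22 of 23 genes at 1 TPM and a median of 7.30 TPM, from Eaf2 at 0.20 and 0.28 TPM to Supt4a at 34.3 and 50.85 TPM. The Mediator median of 6.79 TPM thus lay between those of TFIID and the other general factors. The upper quartile of levels was 2.44 times the lower in the polymerase list and 1.97 times in the other general factors. It was 2.65 times in TFIID and 3.52 times in the elongation factors, beside 2.04 times in Mediator. The SD of the log2 levels was 0.95, 0.71, 1.56 and 1.53 in that order, beside 1.02 in Mediator. Close packing was thus not particular to Mediator. As in Mediator, the genes under 1 TPM in the TFIID list were paralogs of a higher gene.

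**Figure D2:**
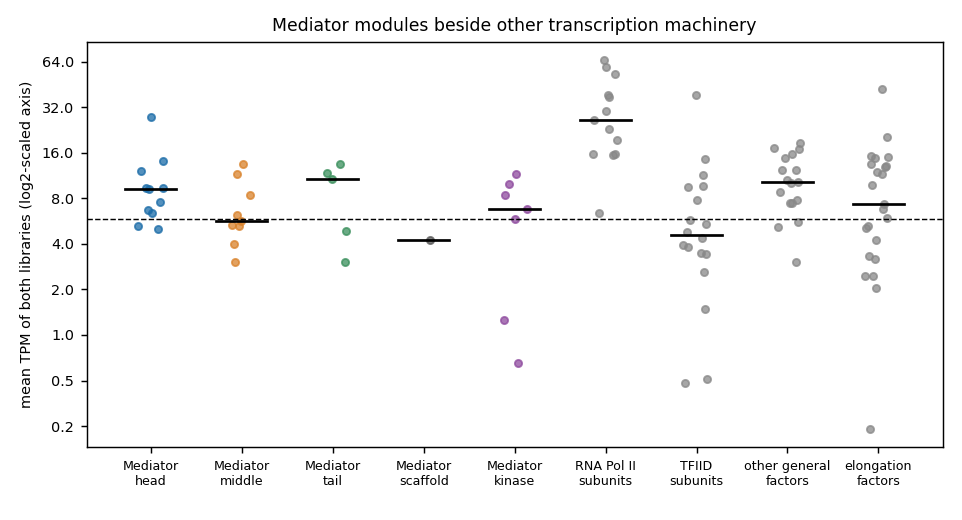
Mean TPM of both libraries for each gene, on a log2-scaled axis, in the 5 Mediator groups (colours) and 4 lists of other transcription genes (grey), with bars for the medians and a dashed line at the protein-coding median. The polymerase list stands highest with a median of 26.4 TPM. The lowest points are Cdk19 and Med12l in the kinase module, Taf7l and Taf9b among TFIID genes, and Eaf2 among elongation factors.

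Between the libraries, most Mediator genes stood higher in replicate 2. On the log2(TPM + 1) scale the median difference, replicate 2 minus replicate 1, was 0.41, against 0.23 for protein-coding genes averaging 1 TPM or more. Of the 33 genes 30 stood higher and 3 lower, where 71.7% of that background stood higher. The background shift depends on the scaling: with edgeR's TMM factors on the counts it was 0.02, the Mediator median was 0.19, and 23 of 33 genes stood higher beside 51.5% of the background. The distance of the Mediator median above the background was 0.18 on both scales. In log2(TPM + 1) the median difference was 0.47 in the RNA polymerase II list and 0.48 in the other general factors. It was 0.40 in TFIID and 0.23 in the elongation factors. A shift above the background was thus not particular to Mediator.

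The modules differed in this. The middle had a median difference of 0.69, the scaffold gene Med14 0.47, the head 0.43, the kinase module 0.27 and the tail -0.02. With TMM factors the order changed at the top, with 0.38 for the scaffold, 0.37 for the middle, 0.20 for the head, 0.12 for the kinase module and -0.32 for the tail. With Med27 to Med30 counted in the tail, its median difference in TPM was 0.38.

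**Figure D3:**
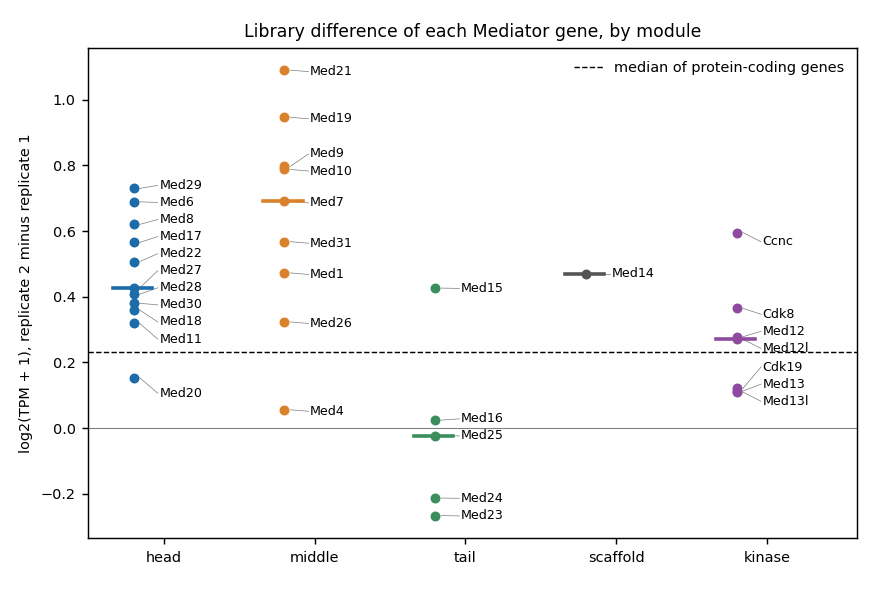
Difference in log2(TPM + 1), replicate 2 minus replicate 1, for each Mediator gene (points) by module, with module medians as bars and the median of protein-coding genes, 0.23, as a dashed line. On this scale the only points below 0 are Med23, Med24 and Med25 in the tail, where with TMM factors 10 genes of 4 modules lie below 0, and the middle module reaches highest, up to Med21.

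The genes at least 2-fold apart in TPM were Med21 (2.27-fold higher in replicate 2), Med19 (2.21-fold) and Med9 (2.02-fold), all of the middle module. They were 3 of the 32 Mediator genes averaging 1 TPM or more, beside 6.44% of protein-coding genes at least 2-fold higher and 1.43% at least 2-fold lower (7.46% and 1.83% of all genes). None was 2-fold lower. Their expected counts were 499 and 978 for Med21, 485 and 1020 for Med19 and 361 and 692 for Med9. With TMM factors none of the 3 was 2-fold apart.

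On the TPM scale the 3 genes that stood lower were all in the tail. With TMM factors 10 stood lower, 4 in the tail, 3 in the kinase module, 2 in the middle and 1 in the head, and with FPKM 7 did, 4 in the tail, 2 in the kinase module and 1 in the middle. Med23 differed by -0.27, Med24 by -0.21 and Med25 by -0.02 on the log2(TPM + 1) scale. In expected counts Med24 had 3518 and 2708, Med23 3073 and 2663 and Med25 1978 and 1851, while the library as a whole was larger in replicate 2. The authors' TPM intervals for Med24 were 14.2 to 15.8 and 12.1 to 13.8, and those for Med23 10.98 to 13.09 and 9.08 to 10.9, so they did not overlap between libraries. Those of Med25, 11.3 to 12.4 and 11.1 to 12.2, did. The intervals do not cover the spread between cultures.

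The size of the difference varied with transcript length. Across the 33 genes Spearman's rho between mean transcript length and the difference was -0.49, where it was -0.09 across the 10403 background genes with a known length and GC content. All genes share the same 2 libraries, so this describes the libraries and not independent samples. The relation was computed on the log2(TPM + 1) scale only. Median lengths were 1223 bases in the head, 1304 in the middle, 3188 in the tail, 4279 for the scaffold and 4788 in the kinase module. Length and module therefore cannot be told apart here. The 12 Mediator genes with a mean length under 1500 bases had a median difference of 0.59, against 0.30 in the background of that length. The 9 genes from 1500 to 3000 bases had 0.37 against 0.22, and the 12 genes of 3000 bases or more 0.27 against 0.21. In each class the Mediator median lay above the background of the same length. By GC content, the 18 Mediator genes below the protein-coding median had 0.47 against 0.33 in the background, and the 15 at or above it 0.32 against 0.12.

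**Figure D4:**
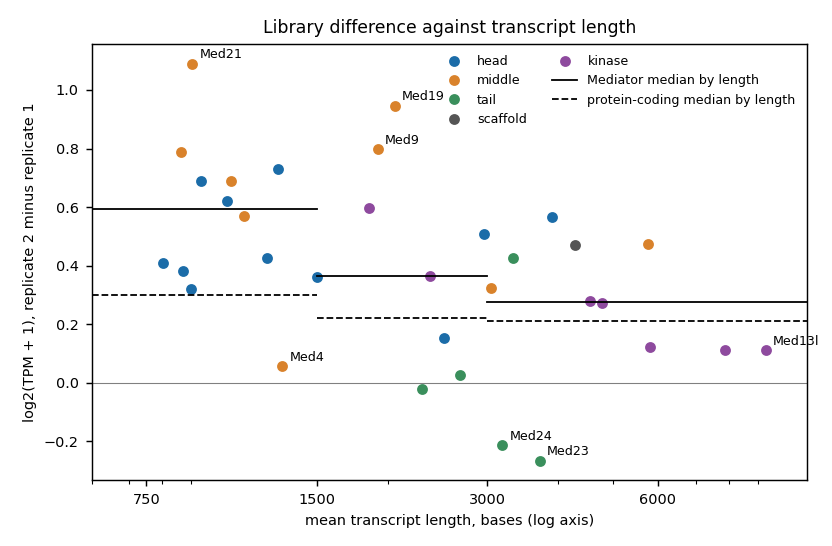
Difference in log2(TPM + 1), replicate 2 minus replicate 1, against mean transcript length on a log axis for the 33 Mediator genes, coloured by module. Solid lines are Mediator medians and dashed lines protein-coding medians within the length classes under 1500, 1500 to 3000 and 3000 bases or more, and the solid line lies above the dashed one in each.

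In some genes the ratio of TPM between libraries differed from that of expected counts, beside a shift in the assigned transcript mix. The part of the mix, of library scaling and of read assignment in this was not tested. Med13 had 5046 and 6682 expected counts, a ratio of 1.32, yet its TPM ratio was 1.09. Its processed transcript Med13-202 took 27.08% of output in replicate 1 and 9.07% in replicate 2, and the protein-coding Med13-201 took 63.94% and 82.59%. Med13-202 is 540 bases long and rested on 77.17 and 26.62 expected counts, while Med13-201 is 10546 bases long and rested on 4932.71 and 6620.36. Med20 went the other way, with 1712.21 and 1649.94 expected counts beside 8.87 and 9.98 TPM. Its protein-coding Med20-201 took 44.16% and 57.90% of output, and 3 retained-intron transcripts took the rest.

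The tables resolve the 33 genes into 147 transcripts. A single transcript was listed for 9 genes and several for 24. The leading transcript was the same in both libraries for all 24, Med12l included, where this held for 85.8% of protein-coding genes with several transcripts and averaging 1 TPM or more. With shares taken from expected counts it held for 23, with Med20 the exception. In 18 of the 24 genes some transcripts were annotated as something other than protein-coding, and these were retained introns, processed transcripts with no reading frame assigned, and targets of nonsense-mediated decay. Protein-coding transcripts took 79.0% and 82.9% of the summed Mediator TPM, retained introns 10.2% and 7.44%, processed transcripts 8.69% and 8.16%, and decay targets 2.13% and 1.47%. The protein-coding share was higher in replicate 2 for 13 of the 24 genes, lower for 5 and fixed at 100% for the 6 with protein-coding transcripts only. It was higher for 54.8% of the background, counted the same way, so the Mediator share lay near the background.

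**Figure D5:**
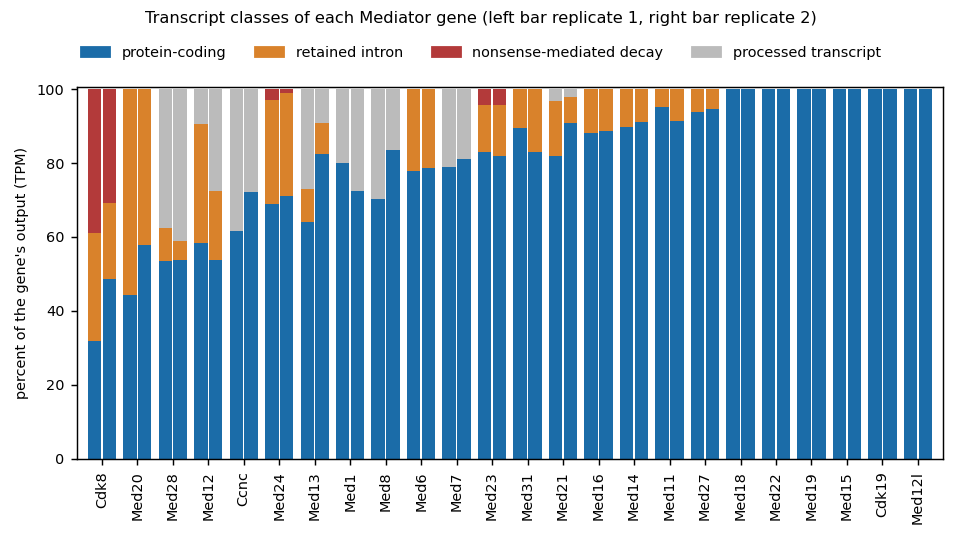
Percent of each gene's TPM in each transcript class for the 24 Mediator genes with several transcripts, with replicate 1 as the left bar and replicate 2 as the right bar, sorted by the protein-coding share. Cdk8 lies farthest left, with 31.8% and 48.5% in protein-coding transcripts, and 6 genes have protein-coding transcripts only.

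Cdk8, the kinase itself, was the Mediator gene with the smallest protein-coding share, 31.8% in replicate 1 and 48.5% in replicate 2. It was the only 1 of the 24 under 50% in both libraries, as were 11.5% of background genes, and Med20 was under 50% in replicate 1. It was also the only 1 led by a transcript not annotated as protein-coding, as were 7.66% of background genes. That transcript, Cdk8-207, is annotated as a target of nonsense-mediated decay and took 39.01% and 30.79% of Cdk8 output. The protein-coding Cdk8-205 took 21.85% and 30.28%, the retained-intron Cdk8-203 24.03% and 17.25%, and the protein-coding Cdk8-201 1.61% and 10.50%. In both libraries Cdk8-207 stood above Cdk8-205, by a wide margin in replicate 1 and by under 1 percentage point in replicate 2.

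Cdk8-207 lacks 1 exon that Cdk8-205 has, exon 5 of 13. The exon is 58 bases long, at chr5:146283629-146283686 on the plus strand of GRCm38, and lies in the coding part of the gene, in the kinase domain. Since 58 is not a multiple of 3, skipping it shifts the reading frame. Transcripts that hold the exon took 31.81% and 42.52% of output, the transcript that joins its neighbours directly took 39.01% and 30.79%, and transcripts that cover neither took 29.18% and 26.69%. The sequence across the exon is shown because this junction is 1 difference between Cdk8-207 and Cdk8-205. They also differ elsewhere, being 2973 and 2467 bases long, so their shares do not measure skipping of this exon alone. Capitals mark the exon and lower case the 20 bases on each side in the spliced RNA, written as DNA.

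Cdk8-205 (exon kept): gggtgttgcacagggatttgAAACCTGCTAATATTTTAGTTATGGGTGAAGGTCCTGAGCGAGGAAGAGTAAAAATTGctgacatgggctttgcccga
Cdk8-207 (exon skipped): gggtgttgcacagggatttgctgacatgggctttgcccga

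A pair of tail genes showed exon choices of a length that is a multiple of 3, and they were picked out after their values were seen. Med15-201 took 60.51% and 57.58% of Med15 output and Med15-202 took 39.49% and 42.42%. They differ by a 120-base exon at chr16:17663377-17663496 on the minus strand of GRCm38, present in the former. In TPM these were 1.47 and 2.08 for Med15-201 and 0.96 and 1.53 for Med15-202, so both forms were at a low level and in similar proportion in both libraries. The sequence in transcript direction is shown with the exon in capitals.

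Med15-201 (exon kept): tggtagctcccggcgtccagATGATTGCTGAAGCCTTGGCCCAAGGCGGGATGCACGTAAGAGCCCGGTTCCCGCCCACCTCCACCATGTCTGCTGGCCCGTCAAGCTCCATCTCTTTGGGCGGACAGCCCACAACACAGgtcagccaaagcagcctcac
Med15-202 (exon skipped): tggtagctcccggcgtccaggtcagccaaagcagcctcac

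In Med23 an exon of only 18 bases, at chr10:24883204-24883221 on the plus strand of GRCm38, was in transcripts that took 11.42% and 20.59% of output. Transcripts that skip it took 50.34% and 58.75%, led by Med23-201 at 45.99% and 54.58%. Transcripts that cover neither took 38.24% and 20.66%, so the kept and the skipped share both rose. Med23-202 and Med23-201 are 5098 and 4798 bases long and thus differ by more than this exon. The skipped form was the larger in both libraries. Capitals mark the short exon again.

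Med23-202 (exon kept): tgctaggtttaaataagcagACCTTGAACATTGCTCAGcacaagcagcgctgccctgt
Med23-201 (exon skipped): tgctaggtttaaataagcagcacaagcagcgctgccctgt

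Among the other kinase module genes, the leading transcript was Ccnc-203 for cyclin C at 35.93% and 39.42%, ahead of the processed transcript Ccnc-207 at 23.68% and 16.29%. Med12-201 led Med12 with only 26.52% and 30.31%, and protein-coding transcripts in all took 58.3% and 53.8%. Med12l was led by Med12l-201 at 63.06% and 71.42%, Cdk19 by Cdk19-201 at 100% in both, and Med13l has a single transcript. The low paralogs Cdk19 and Med12l thus had protein-coding transcripts only, while Cdk8, Med12 and Med13 did not.

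Some Mediator genes overlap other genes, where reads could be shared. Exons of 15 of the 33 genes overlap an exon of another gene, on the opposite strand for 12 and on the same strand for 4. The sources used here do not say whether strand was used in the counting. Expected counts were whole numbers, within 0.005, in both libraries for 31 of the 33 genes, against 87.7% of the background. The exceptions were Med12, which shares 749 exon bases with Gm21986 on the same strand, and Med20, which shares 513 bases with Gm20517. Of the 3 genes 2-fold apart, Med21 overlaps 197 bases of Tm7sf3 on the opposite strand, which stood lower in replicate 2 (33.23 and 23.79 TPM), and Med19 overlaps 246 bases of Zdhhc5 (6.69 and 9.03 TPM) and 19 bases of Tmx2 (37.35 and 38.34 TPM). The expected counts of Med21 and Med19 were whole numbers in both libraries. The part of these overlaps in the values was not tested.

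The genes lie on 17 chromosomes, with 7 of 33 on chromosome 11 (Med1, Med7, Med9, Med11, Med13, Med24 and Med31), which holds 7.57% of protein-coding genes, and Med12 and Med14 on the X. On GRCm38 the highest gene is Med28 at chr5:45520229-45529276 (plus strand) and the lowest Med12l at chr3:59005825-59318682 (plus strand). The genes 2-fold apart are Med21 at chr6:146642547-146650732 (plus strand), Med19 at chr2:84678402-84688215 (plus strand) and Med9 at chr11:59948206-59962205 (plus strand). The kinase gene is Cdk8 at chr5:146231230-146302874 (plus strand). A protein-coding gene starts close by on the opposite strand for 5 of 33, against 7.98% of protein-coding genes. Among them, Rpl7a starts 87 bases from Med22 and Bysl 90 bases from Med20. Paf1 starts 243 bases from Med29, and Gm28635 361 bases from Med19. The ribosomal protein gene Rpl7a stood at 517.92 and 708.37 TPM, 85.6 and 78.5 times Med22, while Bysl stood at 9.90 and 11.98 TPM, near Med20.

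Promoter sequence was taken from RefSeq on GRCm38.p6, from 250 bases before to 50 bases after each start, and 28 of the 33 genes matched, with 32 windows. No window was matched for Cdk19, Med8, Med23, Med24 and Med30. The median ratio of observed to expected CpG was 0.786, against 0.567 over 21262 windows of all protein-coding genes, with a GC content of 57.8% against 56.3%. Of 12 short motifs searched on both strands, the GC box GGGCGG was in 62.5% of Mediator windows and 46.2% of all windows. The ETS core CCGGAAG was in 28.1% and 11.6%, and ATGGCG, the short YY1 motif, in 21.9% and 10.9%. The E-box CACGTG was in 12.5% and 7.84%. The TATA box TATAAA was in 9.38% and 12.6%, and the CCAAT box CCAAT in 37.5% and 38.2%. The other 6 motifs (NRF1, long YY1, CRE, ESRRB, octamer and ZNF143) were each in at most 1 Mediator window. The background windows were not limited to expressed genes. Only 46.3% of protein-coding genes reached 1 TPM in both libraries, against 32 of the 33 Mediator genes. The part of expression in the differences of CpG ratio and motif shares was not tested. These matches are descriptions of letters, and binding was not measured.

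The ETS core was found near 8 genes, spread over head (Med6, Med17, Med18), middle (Med4, Med10, Med19), tail (Med15) and scaffold (Med14). A 27-base stretch per gene is shown for comparison, on the strand that reads CCGGAAG, with the core in capitals and coordinates on GRCm38.p6.

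Med6, chr12:81594978-81595004 (minus strand): ttactgtgcgCCGGAAGgaggctctta
Med17, chr9:15280006-15280032 (minus strand): gcccggtcagCCGGAAGttcctggctc
Med18, chr4:132463899-132463925 (minus strand): cagcttcctaCCGGAAGtgctgaaggg
Med4, chr14:73509984-73510010 (minus strand): aggggcggaaCCGGAAGaaggaaagaa
Med10, chr13:69809851-69809877 (plus strand): cttccggaagCCGGAAGcgggcgagca
Med19, chr2:84678300-84678326 (plus strand): aagtaagttgCCGGAAGatggtaggcg
Med15, chr16:17722930-17722956 (plus strand): ctgggccacgCCGGAAGtacaggaaga
Med14, chrX:12762182-12762208 (plus strand): gcgcaaggcgCCGGAAGccgcgccgcc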

How the data were processed

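Total RNA was sequenced from ES-E14 cells, and 2 libraries of 1 group were used. The deposited text file names mm10 and annotation M4, and the authors quantified each library by itself. The aligner and the quantifier were not given in the sources used here. Per the file headers, the deposited tables hold expected counts, which are fractional where genes share reads, besides TPM summed over every row and FPKM. Posterior mean TPM and its interval bounds were read as signal values of the authors, and the level of the interval is unknown here. For transcripts, the deposited percent is the share of the gene's output.

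GENCODE M21 (GRCm38, identical to mm10) supplied names, biotypes and positions for 42462 of 43346 genes. Left out were 26248 rows with a bare number as their name, and 97 spike-ins. Differences were taken on log2(TPM + 1), which understates the change of low genes, and 2-fold means the ratio of TPM in genes averaging 1 TPM or more. With 1 group, no test was made. Alternatives were limits of 0.5 and 5 TPM, a pseudocount of 0.1, rescaling to protein-coding genes without mitochondrial genes, posterior mean TPM, FPKM, edgeR 4.0.16 TMM factors and DESeq2 1.42.0 size factors on rounded expected counts (R 4.3.3), other filters, Med27 to Med30 in the tail, and leaving out each library. Further alternatives, on protein-coding transcripts, module differences and the log scale, were chosen after seeing the data. Scripts (Python 3.11.15, pandas 2.3.3) were tested on simulated data.

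Members, lists and rules were chosen with earlier results of these data known. Every Mediator gene could be named. Of the lists, the highest and lowest gene and any gene under 1 TPM were named, and of markers the highest. Transcripts were named where they lead a paralog or are not protein-coding, and others after their values were seen. Depth was 43163300 and 45573512 expected counts, with 189 to 6682 per Mediator gene and library. The neighbour of 1 Mediator gene is not reported here.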

Additional observations from a re-analysis of the deposited data

Results flagged for a closer look

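No comparison used the rows outside the genes. They held 1 expected count in replicate 1 and 15 in replicate 2, and the latter is more than the 3 counts that a count of 0 allows. The antisense gene Med9os falls outside the rule for Mediator genes because it is not protein-coding. It had 1 expected count in replicate 1 and 4 in replicate 2, or 0.03 and 0.15 TPM, and the value in replicate 2 is again more than 3 counts. That limit is for a count of 0, while replicate 1 had 1 count in both cases. It therefore says nothing about a difference between the libraries.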

How the results depend on the processing

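The count of genes at 1 TPM or more was 32 or 33 under every alternative run except a limit of 5 TPM, which left 21. Rescaling to protein-coding genes without mitochondrial genes raises every level by construction: the median log2 level went from 2.93 to 5.05, and by module to 5.46 (head), 4.80 (middle), 5.71 (tail), 4.39 (scaffold) and 5.04 (kinase). With FPKM these were 3.63, and 4.02, 3.39, 4.26, 3.02 and 3.62. With 1 library left out at a time the median ranged from 2.82 to 3.23 and the head from 2.94 to 3.46. The tail ranged from 3.41 to 3.67, below the head without replicate 1 and above it without replicate 2. The other settings moved these medians by less than the spread between libraries. The median difference of 0.41 ranged from 0.19 (TMM factors) to 0.50 (pseudocount 0.1), and no alternative reversed it. The 3 genes 2-fold apart became 0 when rescaled, 0 with TMM factors, 0 with DESeq2 size factors, 1 (Med21) with FPKM, and 1 (Med21) when a difference of 1 on the log2(TPM + 1) scale was asked. Counting protein-coding transcripts only can lower a paralog ratio but not raise it, since Cdk19, Med12l and Med13l have no others. With that count, the mean Cdk8 to Cdk19 ratio of 9.06 became 3.69, Med12 to Med12l went from 9.22 to 5.21, and Med13 to Med13l from 1.18 to 0.867. The last was 1.21 with posterior mean TPM, where the cause was not tested. Leading transcripts were the same in 23 or 24 of 24 genes. Under the other scales and pseudocount, 76 single-gene levels moved by more than the spread between libraries and 56 did not, and of single-gene differences 42 and 156. Leaving out 1 of 2 libraries cannot move a single level past that spread by construction, so it says nothing about stability there. No paired analysis was possible because the series has 1 group. A difference between the libraries could not be computed with a library left out. With 2 libraries that cite 1 source sample, the spread between cultures is not known, and the smallest p of a sign-flip test would be 0.5. Med12l, with 189 and 266 counts, is the least precise.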
